A study of Mus musculus with 6 samples.

Results

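Collagens are the main structural proteins of the extracellular matrix, and 10 collagen genes of the liver matrix were followed here: Col1a1, Col1a2, Col3a1, Col4a1, Col4a2, Col5a1, Col5a2, Col6a1, Col6a3 and Col18a1. They were chosen by gene symbol, current or older, and all 10 were on the array, with 20 of the 12422 probe sets other than controls. A probe set is a small group of short probes designed against 1 transcript. RNA came from livers of male wild-type mice of the strain C57BL/6J, 8 to 10 weeks old, 1 mouse per Affymetrix U74Av2 array. The operation, bile duct ligation (BDL), was done 1 day before on 3 of them: the common bile duct was tied at several points and cut between the ties, which blocks the outflow of bile. In the other 3 the abdomen was opened without ligation (sham). By the sample titles the ligated mice are replicates 1, 12 and 3, and those with sham surgery replicates 1, 2 and 3. The design text says that the study looked at injury and repair after ligation, so the comparison asked whether collagen transcripts already differed 1 day after the duct was blocked.

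Each collagen molecule is a triple helix wound from chains that can be products of 1 or several genes. Types I, III and V form the fibrils of connective tissue, type IV forms the network of basement membranes, type VI forms beaded filaments around cells, and type XVIII is a basement membrane collagen whose end fragment is endostatin. In the liver, hepatic stellate cells and portal fibroblasts are known as the main makers of fibrillar collagen in scarring, sinusoidal endothelial cells also make type IV chains, and hepatocytes are a known source of type XVIII. Blockage of the bile duct is a standard model of biliary fibrosis, in which scar matrix builds up slowly after the operation. In RNA from whole liver, fewer cells of a type and less RNA per cell cannot be told apart.

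No collagen probe set differed past the adjusted threshold. Signals are the intensities that the authors deposited, and values under 152.7, the 25th percentile of all signals, were set to that floor before log2 was taken. A probe set was tested where at least 3 of 6 arrays lay above the floor, and 15 of the 20 collagen probe sets, with every one of the 10 genes among them, met this. Limma's Benjamini-Hochberg adjusted p was 0.832 or more for all 15, and over all 9542 probe sets tested 0% passed 0.05. At an unadjusted p under 0.05 there were 2 of 15, Col4a1 on the side of BDL and Col6a3 on the side of sham, against 5.78% of all probe sets tested (3.4% on the side of BDL and 2.39% on that of sham). The count was 0 without BDL replicate 3 or without sham replicate 1 and 1 without BDL replicate 12 or without sham replicate 3. The 2 groups overlapped for all 15, whereas 10.6% of all probe sets tested had the groups apart, 6.32% with BDL above sham and 4.32% with BDL below. Of the 15 differences 8 were positive, with a median log2 difference of 0.0079, beside 48.8% positive and a median of -0.012 over all probe sets tested. These 15 are not independent of each other, since 5 of them report Col18a1 and 2 report Col1a1.

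**Figure D1:**
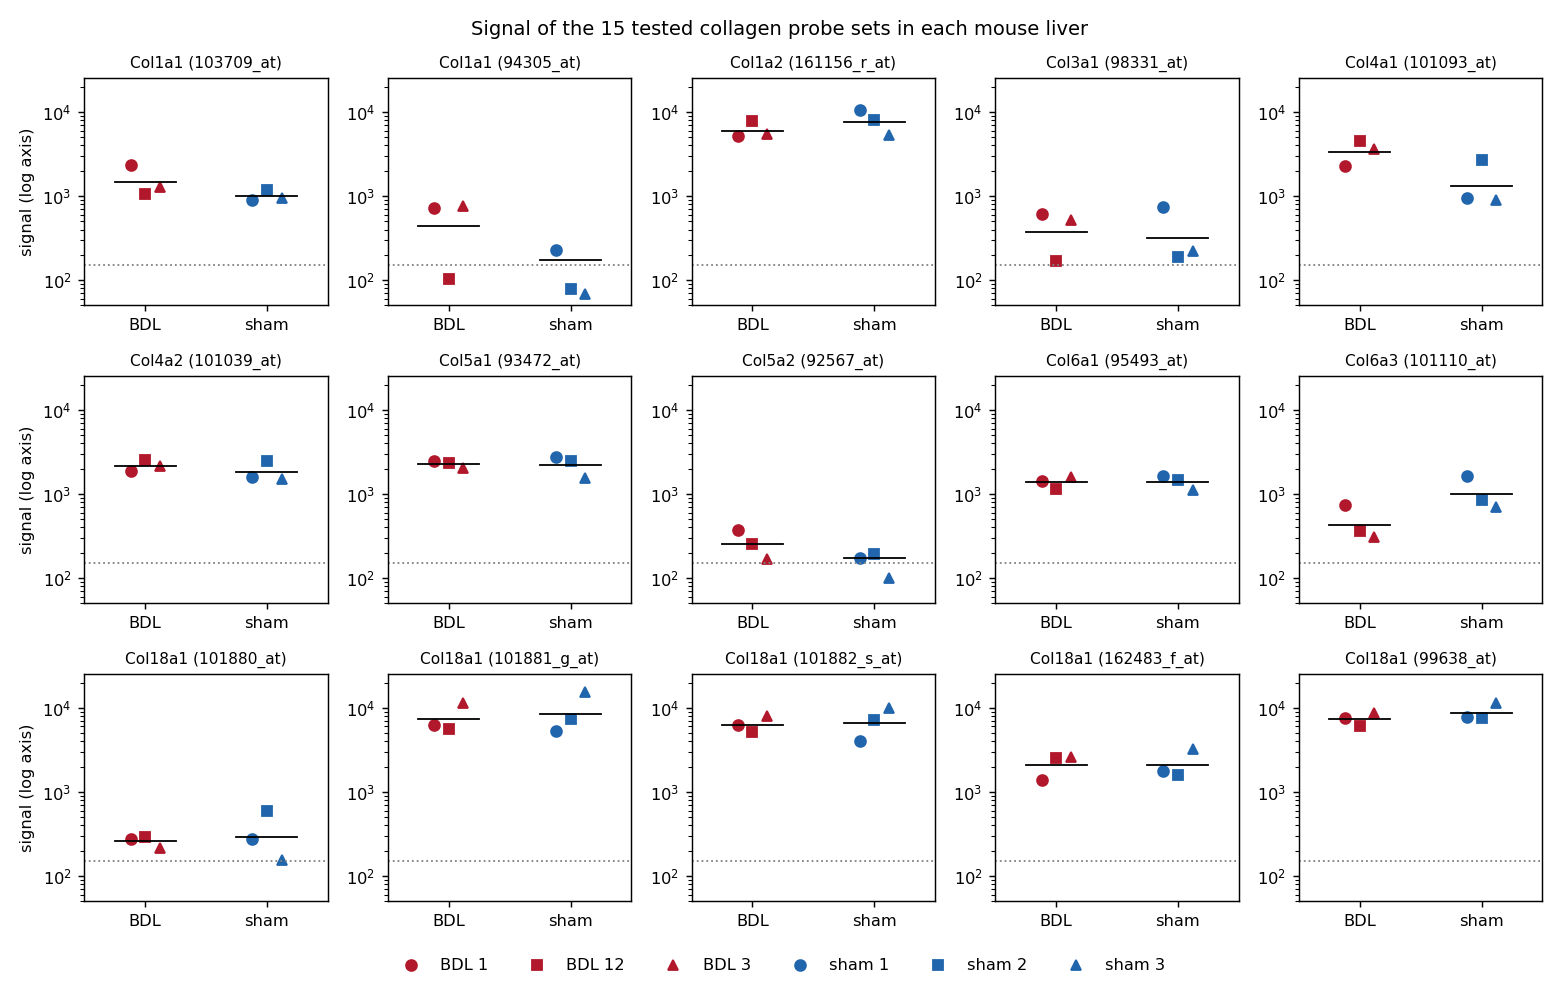
Signal on a log axis for each of the 15 tested collagen probe sets, with BDL mice in red and sham mice in blue, 1 point per mouse; black bars are geometric means after the floor of 152.7 (dotted line) is applied. The groups overlap in every panel, and the highest panels are those of Col1a2 and Col18a1.

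The arrays differed at low signals. The 2% trimmed mean was 1501 on every array. The 10th percentile of signals was 134.7 on sham replicate 1 and 33.6 to 62.2 on the other 5 arrays. Of the 15 tested collagen probe sets, 5 had their highest signal on sham replicate 1 and 7 had their lowest on sham replicate 3. Over all probe sets tested, sham replicate 1 was highest for 32.8% and sham replicate 3 lowest for 22.8%. Of the 5 collagen probe sets that were not tested 3 were highest on sham replicate 1, beside 73.8% of all those not tested. The number of arrays limits the precision. The liver label was checked against hepatocyte markers: albumin (Alb) signals were 125084 to 199675 and those of apolipoprotein A-I (Apoa1) 115982 to 211657, near the top of the scale on every array.

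Col4a1 and Col4a2 encode the chains that wind together into the common type IV collagen of basement membranes. The genes lie head to head on chromosome 8 (Col4a1 at chr8:11198423-11312889 and Col4a2 at chr8:11312805-11449287, GRCm38.p6) and are read in opposite directions from a common promoter region. That region is shown because the 2 signals moved together across mice, as described next. In the RefSeq promoter table the start sites of the pair are 21 bases apart, and the windows from 250 bases before to 50 bases after each start share 78 bases. The window of Col4a1 (chr8:11312777-11313076, minus strand) is printed with those 78 bases in capitals, followed by the same stretch (chr8:11312777-11312854) as it reads on the plus strand, in the direction of Col4a2.
Col4a1 window: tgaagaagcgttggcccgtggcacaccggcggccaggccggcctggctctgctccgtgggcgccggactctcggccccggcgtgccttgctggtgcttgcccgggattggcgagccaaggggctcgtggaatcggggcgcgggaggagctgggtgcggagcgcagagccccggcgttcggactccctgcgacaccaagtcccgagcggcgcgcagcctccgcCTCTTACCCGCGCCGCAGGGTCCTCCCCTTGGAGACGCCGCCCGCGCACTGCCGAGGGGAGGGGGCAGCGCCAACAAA
Col4a2 direction: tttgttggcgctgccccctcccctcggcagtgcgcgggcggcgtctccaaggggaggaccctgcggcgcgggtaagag
Short motifs, 4 in all, were searched on both strands of these windows. CCAAT occurs 1 time in the Col4a1 window, starting 145 bases before its start site, and 1 time in that of Col4a2, 32 bases before; 37.4% of the 32851 mouse windows of the same length hold it. The GC box GGGCGG occurs 1 time and 3 times, against 35.7% of windows with at least 1 match, and the 1 in the Col4a1 window is the same site, in the shared stretch, as 1 of those of Col4a2. Neither window holds TATAAA (13.6% of windows) or the AP-1 motif TGACTCA (5.2%). None of these 4 motifs overlaps another in its letters, and a match is a description of the sequence only.

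Col4a1 and Col1a1 probe set 94305_at, described further on, had the 2 largest positive differences of the 15, and which of them was larger depended on the setting. Col4a1 signals were 2297, 4565 and 3606 in the ligated mice (replicates 1, 12 and 3, the order used from here on) and 943, 2706 and 900 in the sham mice (replicates 1, 2 and 3). Sham replicates 1 and 3 were the lowest of the 6, while sham replicate 2 lay above BDL replicate 1, so the groups overlapped. The mean log2 difference was 1.35 (SE 0.48, 95% interval 0.25 to 2.44, 3 BDL and 3 sham mice), 2.54-fold, with an unadjusted p of 0.0216 and an adjusted p of 0.832 from limma. Col4a2 signals were 1853, 2504 and 2172 in BDL and 1608, 2484 and 1488 in sham mice. The order of the mice was nearly that of Col4a1, with the same 2 sham mice lowest and BDL replicate 12 highest, but the range was narrower. The log2 difference of Col4a2 was 0.25 (SE 0.32, 95% interval -0.47 to 0.98), 1.19-fold, with an adjusted p of 0.904 from limma. Whether the differences of Col4a1 and Col4a2 were unequal was not tested. Without sham replicate 2 the difference was 1.86 for Col4a1 (limma adjusted p = 0.583) and 0.48 for Col4a2, and the BDL signals of both then lay above those of the 2 sham mice left, as did those of Col1a1 probe set 103709_at, 3 members in all. In that setting 21.1% of all probe sets tested had the groups apart, 12.6% with BDL above. Without sham replicate 3 the 2 differences were 1.07 and 0.11.

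Log2 signals of the pair had a Pearson r of 0.92 over the 6 mice (exact permutation p = 0.0208, adjusted p = 0.111 over 16 pairs) and a Spearman rho of 0.94 (exact permutation p = 0.0167, adjusted p = 0.0889). Leaving out the 2 mice farthest from the median of Col4a1, sham replicates 1 and 3, the r was 0.63 over the other 4. The 16 pairs computed were the partner chains of types I, IV, V and VI, the neighbouring genes Col3a1 and Col5a2, and the pairs of probe sets for Col1a1 and Col18a1. They were chosen after the values were seen. The exact tests were two-sided.

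**Figure D2:**
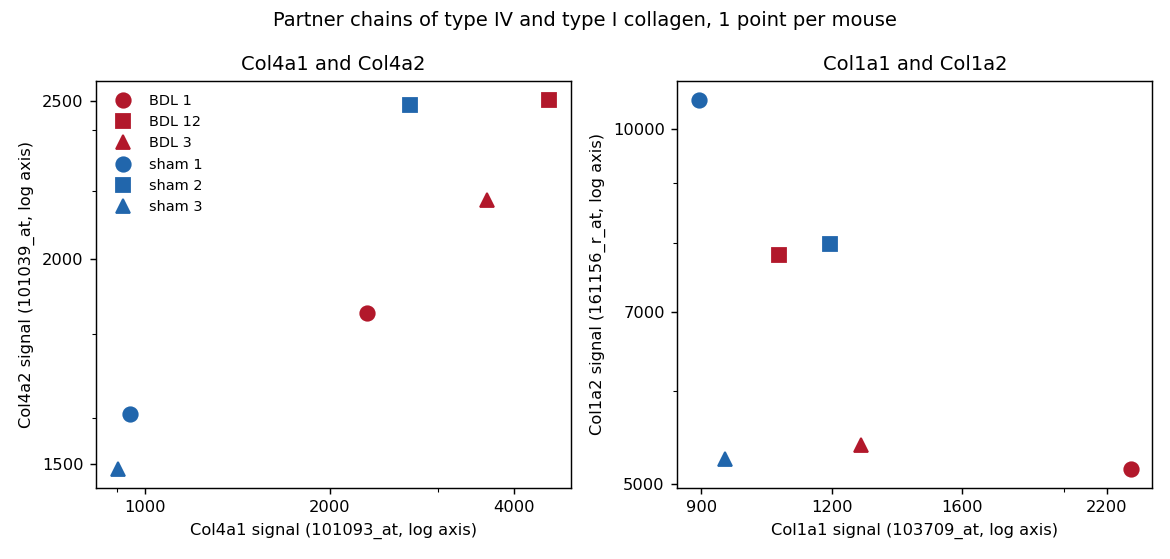
Signals of partner chains on log axes, Col4a1 against Col4a2 (left) and Col1a1 against Col1a2 (right), 1 point per mouse, BDL in red and sham in blue. The type IV chains line up, with sham replicates 1 and 3 at the lower left and sham replicate 2 among the BDL mice, whereas for type I the mouse highest in Col1a1 (BDL replicate 1) is lowest in Col1a2.

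Markers of liver endothelial cells were read beside these values. Summed signals of 13 liver endothelial markers were 9578 to 11535 in BDL mice and 5830 to 11324 in sham mice, with sham replicates 1 (6704) and 3 (5830) low and sham replicate 2 (11324) within the BDL range. None of the 13 was at or under the floor on all 6 arrays. Of the 13, all tested, 10 had positive differences, beside 49.2% of 6892 genes tested, and the median was 0.26, beside -0.0066. An unadjusted p under 0.05 was found for 2, both on the side of BDL, beside 3.4% of all probe sets tested, and 0 passed the adjusted threshold. Leaving out 1 array gave a median of 0.07 (without BDL replicate 1) to 0.63 (without BDL replicate 12). At an unadjusted p under 0.05 these fits had 1 to 4 genes. The 1 was found without any 1 BDL mouse or without sham replicate 1, and the 4 without sham replicate 2. With the replicate number as a block, described further on, which compares replicates 1 and 3 only, 6 genes were under 0.05. Each alternative that compared all 6 arrays gave 1 such gene. Cdh5, the cadherin of endothelial junctions, had signals of 831, 885 and 721 in BDL and 228, 888 and 216 in sham mice, the same 2 sham mice being low. Fcgr2b, an immunoglobulin receptor of sinusoidal endothelium, had a log2 difference of 1.29 (SE 0.33, limma adjusted p = 0.687). It was the 1 gene of the 13 with groups apart, beside 6.32% of all probe sets tested that were apart on that side. The most abundant of the 13 was Eng, a receptor for TGF-beta family ligands, at 0.54 (SE 0.33), and its signal was 2961 of the sum of 6704 on sham replicate 1. The 3 negative differences were those of Flt1, a VEGF receptor (-0.47, SE 0.51), Emcn, an endothelial sialomucin (-0.63, SE 0.43), and Pecam1, an adhesion molecule (-0.25, SE 0.67). Emcn was highest on sham replicate 1, at 482. The part of these cells in the type IV values was not tested.

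By likeness over the 6 arrays, the genes nearest to the mean of Col4a1 and Col4a2 were Srgn (Pearson r = 0.995), G6pc3 (0.990), Eif6 (0.988), Id3 (0.987) and Cd63 (0.986). Of 6882 genes compared, 104 had an r over 0.9.

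Type I collagen, the main collagen of scar, is built from the products of Col1a1 and Col1a2, and their bright probe sets had differences of opposite sign. Col1a1 (chr11:94936224-94953042) had 2 probe sets. Probe set 103709_at gave 2319, 1068 and 1280 in BDL and 895, 1195 and 947 in sham mice. BDL replicate 1 stood above the other 5 mice, which lay between 895 and 1280. The log2 difference was 0.55 (SE 0.36, 95% interval -0.27 to 1.37), with a limma adjusted p of 0.834, and it was 0.22 without BDL replicate 1.

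The second Col1a1 probe set, 94305_at, gave 711, 103 and 754 in BDL and 230, 79.0 and 68.6 in sham mice. BDL replicates 1 and 3 were the highest, while BDL replicate 12 and sham replicates 2 and 3 were under the floor. The log2 difference after the floor was 1.31 (SE 0.59, 95% interval -0.03 to 2.66), with an unadjusted p of 0.0547 and an adjusted p of 0.832 from limma. BDL replicate 12 lowered the value: without that mouse the difference was 2.07 (unadjusted p = 0.000458, limma adjusted p = 0.633). The floor gave sham replicates 2 and 3 the same value and so narrowed the spread, and these p-values are no evidence of a difference. Without BDL replicate 12 both Col1a1 probe sets had the groups apart, as did 21.0% of all probe sets tested (12.4% with BDL above). The 2 Col1a1 probe sets had a Pearson r of 0.72 over the 6 mice (exact permutation p = 0.0917, adjusted p = 0.293) and a Spearman rho of 0.52 (exact permutation p = 0.333, adjusted p = 0.406). Without BDL replicate 1 and sham replicate 1 that r was 0.70.

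Col1a2 (chr6:4505618-4541543) was represented by a bright and a faint probe set. The bright one, 161156_r_at, carries a suffix that Affymetrix gave to probe sets for which not all rules of probe choice could be kept. Its signals were 5150, 7814 and 5397 in BDL and 10581, 7980 and 5257 in sham mice, so that sham replicate 1 was highest and sham replicate 3 lay among the BDL mice. The log2 difference was -0.34 (SE 0.35, 95% interval -1.15 to 0.46), with a limma adjusted p of 0.882; leaving out sham replicate 3 gave -0.61 and leaving out sham replicate 1 gave -0.11. The faint one, 101130_at, lay at or under 152.6 on 5 arrays and at 227 on sham replicate 1, whose low signals were raised, and was not tested. Between Col1a1 probe set 103709_at and the bright Col1a2 probe set Pearson's r was -0.56 (exact permutation p = 0.253, adjusted p = 0.404) and Spearman's rho -0.60 (exact permutation p = 0.242, adjusted p = 0.406). Without BDL replicate 1 and sham replicate 1 that r was 0.17.

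Type III collagen, the product of Col3a1 (chr1:45311538-45349706), accompanies type I in soft tissue and early scar. Of its 3 probe sets, 98331_at was tested and gave 608, 168 and 515 in BDL and 732, 191 and 221 in sham mice. BDL replicates 1 and 3 and sham replicate 1 were high in a way that did not follow the operation, and the other 3 mice were near the floor. BDL minus sham was 0.26 on the log2 scale (SE 0.63, 95% interval -1.18 to 1.69), with a limma adjusted p of 0.954, and it ran from -0.10 without sham replicate 2 to 0.87 without sham replicate 1. The other Col3a1 probe sets, 102990_at and 161984_f_at, were at 15.3 to 87.6 and 15.9 to 212, with all 6 and 5 of the 6 arrays under the floor. The highest value of each was on BDL replicate 3.

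The genes with patterns nearest to the mean of Col1a1, Col1a2 and Col3a1 were Syngr1 (Pearson r = 0.995), Plat (0.985), Fbxo45 (0.980), Dkk3 (0.979) and Col9a2 (0.977), and 71 of 6882 genes had an r over 0.9. These 5 had log2 differences of 0.03 to 0.31. The mean is not a pattern that its genes share, since Col1a1 and Col1a2 had a Pearson r of -0.56. Col3a1 weighs most in it, with a log2 standard deviation of 1.01 in BDL and 1.07 in sham mice. Those of Col1a1 103709_at and Col1a2 161156_r_at were 0.22 to 0.59.

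Type V collagen, built here from Col5a1 and Col5a2, is a minor fibril component that helps to set the width of type I fibrils. Col5a1 (chr2:27886381-28039510) probe set 93472_at gave 2467, 2344 and 2041 in BDL and 2789, 2500 and 1568 in sham mice. The BDL mice lay within the sham range, and the log2 difference was 0.04 (SE 0.32, 95% interval -0.69 to 0.76) with a limma adjusted p of 0.989. The other Col5a1 probe set, 101080_at, was above the floor on 1 array, sham replicate 1 (183), and was not tested. Col5a2 (chr1:45374331-45503282), a neighbour of Col3a1, gave 373, 254 and 170 in BDL and 175, 195 and 100 in sham mice. BDL replicates 1 and 12 were above every sham mouse, and BDL replicate 3 was not. At signals near the floor, the difference was 0.54 on the log2 scale (SE 0.35, 95% interval -0.25 to 1.34) with a limma adjusted p of 0.832. Col5a1 and Col5a2 had a Pearson r of 0.44 over the 6 mice (exact permutation p = 0.371, adjusted p = 0.456) and a Spearman rho of 0.49 (exact permutation p = 0.356, adjusted p = 0.406), and without BDL replicate 3 and sham replicate 3 the r was -0.59. For the neighbours Col3a1 and Col5a2 Pearson's r was 0.14 (exact permutation p = 0.806, adjusted p = 0.806) and Spearman's rho -0.09 (exact permutation p = 0.919, adjusted p = 0.919), with an r of 0.61 without BDL replicate 12 and sham replicate 1.

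Type VI collagen was measured through Col6a1 and Col6a3, of which Col6a3 had the largest negative difference. Col6a3 (chr1:90766860-90844001) signals were 735, 362 and 306 in BDL and 1624, 850 and 697 in sham mice. BDL replicate 1, at 735, lay just above the lowest sham mouse, at 697, and no other values overlapped. Col6a3 thus differed by -1.19 on the log2 scale (SE 0.45, 95% interval -2.21 to -0.17), a level 2.28-fold lower in BDL by the geometric means, with an unadjusted p of 0.0272 and an adjusted p of 0.832 from limma. Leaving out sham replicate 1, which was the highest of the 6 and had raised low signals, gave -0.83, and leaving out BDL replicate 1 gave -1.57. After quantile normalization the groups no longer overlapped for Col6a3 (-1.16, limma adjusted p = 0.716) or for Col5a2 (0.72, limma adjusted p = 0.716), in a setting where 12.3% of all probe sets tested had the groups apart.

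Col6a1 (chr10:76708792-76726044) encodes another chain of the same molecule. Its probe set 95493_at gave 1443, 1156 and 1576 in BDL and 1638, 1477 and 1101 in sham mice, with the BDL mice inside the sham range. BDL minus sham was -0.0069 on the log2 scale (SE 0.30, 95% interval -0.69 to 0.68) with a limma adjusted p of 0.998. The other Col6a1 probe set, 162459_f_at, was above the floor on sham replicate 1 only (184) and was not tested. Over the 6 mice Col6a1 and Col6a3 had a Pearson r of 0.34 (exact permutation p = 0.506, adjusted p = 0.578) and a Spearman rho of 0.37 (exact permutation p = 0.497, adjusted p = 0.530). Without BDL replicate 12 and sham replicate 3 that r was 0.19.

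Type XVIII collagen was reported by 5 probe sets for Col18a1 (chr10:77052178-77166530), all of them tested, with log2 differences from -0.22 to 0.0079. Probe set 99638_at gave 7670, 6156 and 8767 in BDL and 7725, 7481 and 11422 in sham mice. Sham replicate 3 was the highest and BDL replicate 12 the lowest, and the other 4 mice lay between 7481 and 8767. The log2 difference was -0.22 (SE 0.31, 95% interval -0.93 to 0.48) with a limma adjusted p of 0.913. Sham replicate 3, lowest for 7 of the 15 tested collagen probe sets, was the highest of the 6 mice for 4 of the 5 Col18a1 probe sets.

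Probe sets 101881_g_at and 101882_s_at, whose suffixes mark probes shared between transcripts or probe sets, gave 5652 to 11436 and 5117 to 7968 in BDL and 5246 to 15249 and 3993 to 9868 in sham mice. Their log2 differences were -0.18 (SE 0.46) and -0.06 (SE 0.39). Probe set 162483_f_at gave 1399 to 2633 in BDL mice and 1585 to 3205 in sham mice, a difference of 0.0079 (SE 0.39). The faintest, 101880_at, gave 218 to 293 in BDL mice and 155 to 594 in sham mice, a difference of -0.18 (SE 0.47), and its highest signal was on sham replicate 2. Limma adjusted p-values of these 4 were 0.954 to 0.998. Among the 10 pairs of Col18a1 probe sets Pearson's r over the 6 mice ran from -0.71 to 0.92, and it was negative for the 4 pairs that include 101880_at. The closest pair, 101881_g_at with 101882_s_at, had r = 0.92 (exact permutation p = 0.00833, adjusted p = 0.111) and a Spearman rho of 1 (exact permutation p = 0.00278, the smallest that 6 mice allow, adjusted p = 0.0444). Without BDL replicate 3 and sham replicate 3 its r was 0.97. Both report Col18a1 and may share probes, so their agreement describes the probe sets only.

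**Figure D3:**
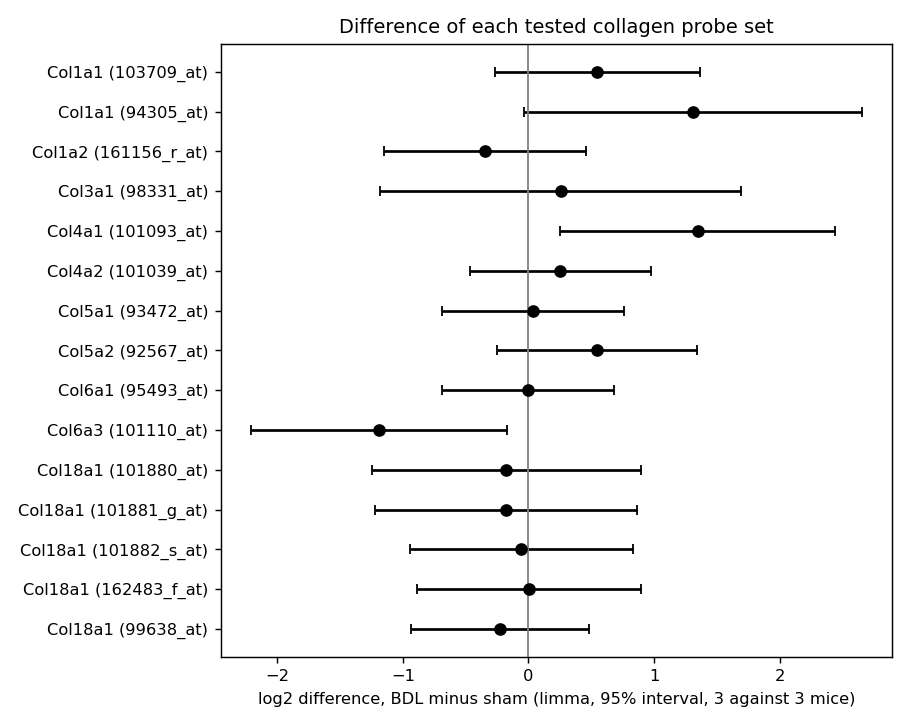
Mean log2 difference, BDL minus sham, of each tested collagen probe set with its 95% interval from limma (3 against 3 mice). The intervals of Col4a1 (0.25 to 2.44) and Col6a3 (-2.21 to -0.17) leave out 0 before adjustment, and the other 13 include it.

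The intervals bound what these 6 mice can show. For Col18a1 the 95% interval reaches from 0.524-fold to 1.40-fold by probe set 99638_at and from 0.430-fold to 1.82-fold by 101881_g_at, and for Col6a1 from 0.619-fold to 1.60-fold. For Col3a1 it reaches from 0.441-fold to 3.24-fold. Within groups the signals of a probe set spread widely: the highest over the lowest sham mouse was 3.01-fold for Col4a1, 2.33-fold for Col6a3 and 3.84-fold for Col3a1. The spread was wider among sham than among BDL mice for 11 of the 15 tested probe sets, among them all 5 of Col18a1. The share over all probe sets was not computed, so this count is no result about the collagens. Over all probe sets tested, sham replicate 1 was highest for 32.8% and sham replicate 3 lowest for 22.8%.

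**Figure D4:**
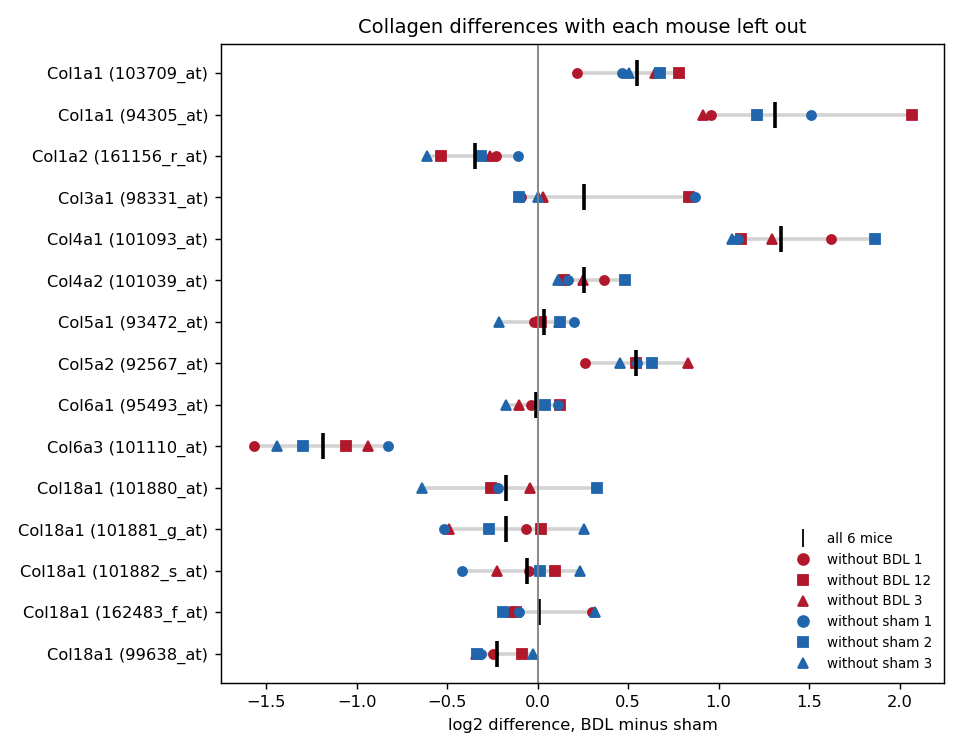
Log2 difference, BDL minus sham, of each tested collagen probe set with all 6 mice (black bar) and with each mouse left out (red, a BDL mouse left out; blue, a sham mouse). Col4a1 stays between 1.07 and 1.86 and Col6a3 between -1.57 and -0.83, whereas 7 probe sets cross 0.

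Enzymes and chaperones that make collagen were read from a separate list. Of 18 genes listed 12 were on the array and all 12 were tested; 5 had positive and 7 negative differences, 0 had an unadjusted p under 0.05 in either direction, and the median was -0.08. The most abundant were P4hb, the protein disulfide isomerase that is also a subunit of collagen prolyl 4-hydroxylase (0.39, SE 0.29), Ppib, a prolyl isomerase of the endoplasmic reticulum (-0.20, SE 0.35), and Mia3, which helps load collagen for export (-0.04, SE 0.44). P4hb was the 1 gene of the 12 with groups apart, at 8886 to 12352 in BDL mice and 6949 to 8731 in sham mice, beside 6.32% of all probe sets tested that were apart on that side.

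Serpinh1 encodes HSP47, the chaperone dedicated to procollagen. Its signals were 224, 275 and 523 in BDL and 156, 195 and 238 in sham mice, with BDL replicate 1 below the highest sham mouse. The log2 difference was 0.72 (SE 0.38, 95% interval -0.15 to 1.59) with a limma adjusted p of 0.832. The hydroxylase subunits P4ha1 and P4ha2 differed by 0.21 (SE 0.45) and 0.34 (SE 0.34), and Plod3, a lysyl hydroxylase, by -0.24 (SE 0.29). Of the genes for processing outside the cell, Bmp1, a procollagen proteinase, differed by -0.12 (SE 0.31), its enhancer Pcolce by -0.27 (SE 0.33), and the cross-linking oxidases Lox and Loxl1 by -0.52 (SE 0.45) and 0.0078 (SE 0.48). Adjusted p-values from limma were 0.832 or more for all 12 genes.

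Of 12 collagen receptors listed, 7 were on the array and 6 were tested, with 2 positive and 4 negative differences, 0 at an unadjusted p under 0.05 and a median of -0.15. Itgb1, the common beta chain of the collagen-binding integrins, gave 13335, 13713 and 16292 in BDL and 10151, 9804 and 11201 in sham mice. It was the 1 gene of the 6 with groups apart, beside 6.32% of all probe sets tested that were apart on that side. Its log2 difference was 0.47 (SE 0.27, limma adjusted p = 0.832). Ddr1 and Ddr2, receptor tyrosine kinases that bind collagen, differed by 0.60 (SE 0.40) and -0.17 (SE 0.38).

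Other basement membrane genes had differences of both signs: 4 of 11 tested had positive differences, and the median was -0.18. An unadjusted p under 0.05 was found for 1, beside 5.78% of all probe sets tested. With 1 array left out that count ran from 0 (BDL replicate 3 out) to 3 (BDL replicate 12 out) and was 2 on leaving out BDL replicate 1 or either of sham replicates 2 and 3, and the median was 0.03 without sham replicate 1. The gene was Sparc, a collagen-binding matrix protein, with signals of 628, 637 and 975 in BDL and 466, 441 and 280 in sham mice and a log2 difference of 0.92 (SE 0.34, limma adjusted p = 0.832). The laminin chains Lamb1 and Lamc1 differed by 0.86 (SE 0.39) and 0.06 (SE 0.29), while the 5 alpha chains tested, Lama1 to Lama5, had differences from -0.63 to -0.01. Nid1, which links laminin to type IV collagen, gave 222, 158 and 412 in BDL and 108, 112 and 44.9 in sham mice. The sham signals were all under the floor, so BDL was at least 1.60-fold higher, a bound that the floor sets, and Nid1 passed the filter through the BDL mice alone. The filter thus fixed the sign of Nid1, which is 1 of the 4 positive genes. Agrn and Hspg2, proteoglycans of basement membranes, differed by -0.38 (SE 0.32) and -0.55 (SE 0.45).

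Markers of stellate cells and myofibroblasts, the cells known for making fibrillar collagen, were spread on both sides. Of 21 genes on the array 17 were tested, 6 with positive and 11 with negative differences, and the median was -0.13. Of these 17, 2 had an unadjusted p under 0.05, both on the side of BDL, beside 3.4% of all probe sets tested. Summed signals of the 21 were 27354 to 35179 in BDL mice and 20171 to 32124 in sham mice, with sham replicate 3 the lowest. None of the 21 was at or under the floor on all 6 arrays. Acta2, the smooth muscle actin of activated stellate cells, gave 486, 209 and 473 in BDL and 192, 73.3 and 23.6 in sham mice. It was the 1 gene of the 17 with groups apart and BDL above, beside 6.32% of all probe sets tested. Its log2 difference after the floor was 1.14 (SE 0.38, limma adjusted p = 0.832). Reln, a secreted protein of stellate cells, differed by 1.72 (SE 0.71, limma adjusted p = 0.832), with signals of 2405, 1724 and 1244 in BDL and 204, 1817 and 389 in sham mice, so that sham replicates 1 and 3 were low and sham replicate 2 was not, as for Col4a1. Des, the desmin of stellate cells, differed by -0.89 (SE 0.52). The most abundant of these genes were Dcn, a proteoglycan that binds collagen fibrils (0.67, SE 0.36), Fn1, fibronectin (-0.21, SE 0.28), and Timp1, an inhibitor of collagenases (-0.13, SE 0.54). Bgn, a proteoglycan related to Dcn, differed by 0.62 (SE 0.33). The count under 0.05 was 0 on leaving out BDL replicate 1, 1 on leaving out BDL replicate 12, BDL replicate 3 or sham replicate 1, and 4 on leaving out sham replicate 2. The list's median moved to -0.52 on leaving out sham replicate 3 and to 0.12 on leaving out sham replicate 1. The part of these cells in the collagen values was not tested.

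Markers of bile duct cells and macrophages, which lie beside the collagen of portal tracts and sinusoids, were read as well. Of 6 tested cholangiocyte markers 5 had positive differences, beside 49.2% of all genes tested. Their median was 0.55, beside -0.0066, and it was 0.25 without sham replicate 3. An unadjusted p under 0.05 was found for 1, beside 5.78% of all probe sets tested. The 1 gene was Anxa3, an annexin, at 381, 405 and 389 in BDL and at 137, 72.9 and 63.0 in sham mice. All 3 sham signals were under the floor, hence BDL was at least 2.56-fold higher, a bound that the floor sets. Anxa3 passed the filter through the BDL mice alone, so its sign was fixed by the filter, and it is 1 of the 5 positive genes. Its floored sham values have no spread, so its p-values (limma adjusted p = 0.667) are no evidence of a difference. Krt19, a keratin of duct cells, differed by 0.32 (SE 0.35) with 3 of 6 arrays under the floor. Of 12 tested macrophage markers 10 had positive differences, beside 49.2% of all genes tested, and the median was 0.90, beside -0.0066. The negative ones were C1qb (-0.29) and Adgre1 (-0.19). An unadjusted p under 0.05 was found for 3, all on the side of BDL, beside 3.4% of all probe sets tested. That count was 0 without BDL replicate 3 or sham replicate 3 and 1 without BDL replicate 1 or with no filter. The median was 0.51 without sham replicate 3. Summed macrophage signals were 18745 to 41189 in BDL mice and 8164 to 15281 in sham mice. Cd14, the endotoxin co-receptor and the most abundant gene of the list, was at 1873, 29692 and 15816 in BDL and 717, 4568 and 1176 in sham mice. It thus made up much of the sums on BDL replicates 12 (41189) and 3 (34274). By the mean of the list's centred log2 signals, BDL replicate 12 (-0.05) lay close to sham replicate 1 (-0.09). BDL replicates 1 and 3 were at 0.47 and 0.87, and sham replicates 2 and 3 at -0.27 and -0.92. The part of bile duct cells and macrophages in the collagen values was not tested.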

How the data were processed

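The authors read the arrays with GeneChip 3.1 algorithms and MicroArray Suite 4.0, per the series' design text; settings and scaling target were not given in the sources used here. Each deposited value is the signal intensity of a probe set on 1 array, in linear units. Trimmed means were equal within 5%, so the scaling was kept. Of 12488 probe sets, 66 controls were left out, 2880 were not tested and 9542 were, with limma 3.58.1 in R 4.3.3 on log2 signals (4 residual and 4.67 prior degrees of freedom, no covariates) and Benjamini-Hochberg adjustment over all of them. The test was checked on simulated normal values without a floor, with changes planted only in probe sets well above it. That check does not cover signals at or near the floor. SE is limma's moderated standard error. Floored signals understate differences and narrow the spread.

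Gene names came from the annotation of the array platform, updated to the RefSeq genes of GRCm38.p6; 10833 had 1 symbol, 396 several and 1193 none. In lists, the probe set with the highest mean represented a gene. Named were all collagen members, any processing enzyme or receptor, and in other lists up to 3 genes by abundance and 3 by unadjusted p. Krt19, Des, Bgn, Flt1, Emcn, C1qb, Adgre1, Lama1 to Lama5, Col7a1 and Col6a2 were chosen after their values were seen. Promoter windows from RefSeq were found for 8 of the 10 members. The members and lists were chosen with earlier results of these data known.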

Additional observations from a re-analysis of the deposited data

How the results depend on the processing

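No collagen probe set passed the adjusted threshold under any of the 15 alternatives tried, where the lowest adjusted p of a member was 0.352; the sources used here name no batch. Among all probe sets 3 passed with no filter on low signals, and 0 under the others. At an unadjusted p under 0.05 there were 354 of 6082 probe sets with the filter at the median (5.82%, beside 5.78% in the main fit). Of 9542 probe sets there were 1023 with array weights (10.7%) and 308 to 1176 with 1 array left out (3.23% to 12.3%). Of collagen probe sets, 0 had an unadjusted p under 0.05 with no filter and 0 to 2 with 1 array left out, and 2 of 14 had the groups apart after quantile normalization (12.3% of all probe sets tested did) and 0 to 3 of 15 with 1 array left out (16.4% to 30.1% of all). Of 15 members 8 kept their sign under every alternative that could be run on them. The other 7 changed sign, all from small differences. Col5a1 was -0.0017 after quantile normalization and -0.045 with array weights, and Col6a1 and Col18a1 101881_g_at were 0.040 and 0.012 with array weights. With 1 array left out the ranges were -0.10 to 0.87 for Col3a1, -0.21 to 0.20 for Col5a1, -0.17 to 0.12 for Col6a1, and for Col18a1 -0.64 to 0.33 (101880_at), -0.52 to 0.25 (101881_g_at), -0.42 to 0.23 (101882_s_at) and -0.19 to 0.32 (162483_f_at). The cause was not tested. With array weights Col4a1 differed by 0.82 and Col1a1 94305_at by 1.78; with the lower floor, at the 10th percentile, Col1a1 94305_at differed by 1.82.

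The replicate number as a block could use numbers 1 and 3 only, which both groups share. Deviations from the group means correlated at 0.21 and 0.25 for equal numbers and at -0.04 and -0.10 for crossed numbers, with 2 pairs too few to show a pairing. With the block 0 collagen probe sets passed, 3 had an unadjusted p under 0.05, and 651 of all 9542 probe sets tested did (6.82%). The endothelial list then had 6 genes at an unadjusted p under 0.05 and a median of 0.94, and the macrophage list 8 and 1.23. Col6a1 (0.17) and Col18a1 101880_at (0.25), 101882_s_at (0.17) and 162483_f_at (-0.32) changed sign.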

Other observations

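Collagens outside the 10 members were mostly faint, and their pattern followed single arrays. Of 23 listed, 19 were on the array and 16 were tested: 5 had positive and 11 negative differences, 0 had an unadjusted p under 0.05, and the median log2 difference was -0.22. The brightest were the cartilage collagens Col9a1 (-0.50, SE 0.42), Col9a2 (0.03, SE 0.34) and Col9a3 (-0.70, SE 0.32). Col9a3 gave 732, 712 and 715 in BDL and 1658, 1108 and 869 in sham mice, the 1 gene of the 16 with groups apart, beside 4.32% of all probe sets tested on that side. Col7a1, the anchoring fibril collagen of skin, stood at 2003 on sham replicate 1 and at 133 to 431 on the other 5 arrays. The summed signal of these genes was 13600 on sham replicate 1 and 5668 to 9521 on the others, and their median difference was -0.03 without sham replicate 1. Without sham replicate 3 the median was -0.60 with 5 genes at an unadjusted p under 0.05. In that setting 12.3% of all probe sets tested were under 0.05, beside 5.78% in the main fit. Col6a2, the third chain of the type VI molecule with Col6a1 and Col6a3, differed by -0.07 (SE 0.30).

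Markers of tissues that a liver sample could carry along were read as well. Of 4 mesothelial markers on the array, 3 were tested, and Wt1, a transcription factor of mesothelium, differed by -1.02 with its highest signal (1014) on sham replicate 1. Of 6 tested muscle genes 3 had positive differences, and Ckm, the muscle creatine kinase, differed by 0.17. With 1 array left out the muscle list had 0 to 3 genes at an unadjusted p under 0.05. The 3 were found without sham replicate 3, where 12.3% of all probe sets tested were under 0.05. In the main fit the list had 1 such gene, beside 5.78%. It was Pvalb, the calcium buffer parvalbumin, which gave 5806, 5610 and 3672 in BDL and 1990, 3155 and 2760 in sham mice, with the groups apart and a log2 difference of 0.93 (unadjusted p = 0.0204, limma adjusted p = 0.832). Of 4 tested fat genes 2 had positive differences. Lpl, lipoprotein lipase, gave 929, 793 and 716 in BDL and 262, 491 and 262 in sham mice, with the groups apart and a log2 difference of 1.32 (unadjusted p = 0.00404, limma adjusted p = 0.687). Pvalb and Lpl were each the 1 gene of their list with groups apart, beside 6.32% of all probe sets tested on that side. Lep, which encodes leptin, was at 3264 to 6168 on the 6 arrays, a difference of 0.06, and Adipoq, which encodes the adipocyte hormone adiponectin, differed by -0.61, again highest on sham replicate 1 (766). Of 9 tested hepatocyte genes 4 had positive differences, with a median of -0.0085. An unadjusted p under 0.05 was found for 1 of the 9, on the side of sham, beside 2.39% of all probe sets tested. It was Ttr, at 3576, 4520 and 4824 in BDL and 11138, 6456 and 14576 in sham mice. Its groups were apart, as were 4.32% of all probe sets tested on that side. The log2 difference of Ttr was -1.25 (SE 0.36, limma adjusted p = 0.830).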
